A study of Homo sapiens with 16 samples.

Results

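ERBB2 and 6 genes beside it on the long arm of chromosome 17 were examined in 2 human breast cancer cell lines given MitoQ or left as controls. The genes were MED1, CDK12, STARD3, PGAP3, ERBB2, MIEN1 and GRB7, named here in their order along the chromosome. They were chosen by name for their position at 17q12, and all 7 were found among the 35106 genes of the count table. MDA-MB-231, which lacks the hormone receptors and HER2 amplification and has a mesenchymal character, was taken at passage 25, with 5 control and 5 MitoQ libraries. SKBR3, a HER2-positive line with luminal traits, was taken at passage 10, with 3 control and 3 MitoQ libraries. MitoQ is a ubiquinone coupled to a lipophilic cation that carries it into mitochondria, and it was given at 500 nM for 48 h. The sources used here do not state what was added to control cells. Each cell type is represented by 1 line at 1 passage, and the effects of line and of passage cannot be told apart. Nothing in the labels says whether replicates came from separate cultures, so p-values measure the spread between these libraries only, which may be technical.

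ERBB2 encodes HER2, a receptor tyrosine kinase of the epidermal growth factor receptor family that signals mainly as a partner of other family members. In a subset of breast cancers the stretch of chromosome 17 around ERBB2 is present in extra copies, and the genes beside it are copied with it. SKBR3 is a standard model of that subset, and MDA-MB-231 is used as a line without the amplification. Copy number was not measured in these libraries.

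The 7 genes lay on chromosome 17 of GRCh38 by the GENCODE release 29 annotation. MED1 (ENSG00000125686, minus strand) spanned 39404285 to 39451286, and CDK12 (ENSG00000167258, plus strand) spanned 39461511 to 39564907. STARD3 (ENSG00000131748, plus strand) spanned 39637065 to 39663484. PGAP3 (ENSG00000161395, minus strand) spanned 39671122 to 39696797 and overlapped ERBB2 (ENSG00000141736, plus strand), which spanned 39687914 to 39730426. MIEN1 (ENSG00000141741, minus strand) spanned 39728496 to 39730787 and also overlapped ERBB2, and GRB7 (ENSG00000141738, plus strand) began 7.5 kb beyond ERBB2, from 39737927 to 39747291. Exons of ERBB2 shared 194 bases with exons of PGAP3 and 571 bases with exons of MIEN1, in both cases on the opposite strand. Of all 31-base stretches in annotated transcripts, 21.6% of those of MIEN1 and 4.28% of those of PGAP3 were found on the opposite strand of ERBB2 transcripts. The sources used here do not state whether counting used strand, so reads in these overlaps cannot be assigned with certainty, and the values of MIEN1 in particular carry that limit.

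The starts of ERBB2 and PGAP3 face away from each other with 36 bases between them in RefSeq. A stretch of 21 bases of that gap is shown, because both genes start at the gap. Its limits were set by the letters marked below. It lies within annotated exons of ERBB2 or PGAP3, as does the whole window before the ERBB2 start. With MitoQ, PGAP3 rose in MDA-MB-231 and ERBB2 did not pass the test there, while in SKBR3 neither passed. The 21 bases lie at chr17:39688067-39688087 on the plus strand of GRCh38.p14, and the capitals mark the letters CCGGAAGT on either strand.
ERBB2-PGAP3: ACTTCCGGagtaaCCGGAAGT
These letters occurred 2 times in the gap, on opposite strands. They were searched for after the sequence had been seen, and 1.25% of 35116 windows of the same length next to RefSeq starts held them. Other motifs were searched on both strands and were not found in this gap. They were the CCAAT box, with the letters of its name, and the TATA box, searched as TATAA. An AP-2 motif was searched as GCCNNNGGC. A GC box was searched as GGGCGG, and the ETS site described for ERBB2 was searched as GAGGAA.

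MED1 and CDK12 also lie on opposite strands with their starts facing away from each other, but 10.2 kb apart, and their upstream sequences are shown because both repeat the same letters. The MED1 sequence is chr17:39451287-39451513 on the minus strand and the CDK12 sequence is chr17:39461236-39461485 on the plus strand, both from RefSeq on GRCh38.p14 and outside annotated exons. Capitals mark TCTCGCGA on either strand, and in the MED1 sequence also CCAAT and the reverse complement of GAGGAA.
MED1: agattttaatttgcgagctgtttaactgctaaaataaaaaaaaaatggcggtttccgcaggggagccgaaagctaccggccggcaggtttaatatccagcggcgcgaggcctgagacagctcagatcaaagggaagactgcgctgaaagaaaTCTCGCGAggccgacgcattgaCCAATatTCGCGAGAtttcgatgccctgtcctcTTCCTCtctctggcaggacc
CDK12: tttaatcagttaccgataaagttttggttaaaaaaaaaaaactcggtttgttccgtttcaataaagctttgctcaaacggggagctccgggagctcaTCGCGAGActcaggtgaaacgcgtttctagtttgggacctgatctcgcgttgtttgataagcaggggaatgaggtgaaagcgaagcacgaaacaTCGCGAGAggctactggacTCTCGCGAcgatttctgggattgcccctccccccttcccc
The letters TCTCGCGA occurred 3 times in the 250 bases before each of these starts, of which 2 of the MED1 matches fall in the sequence shown. They too were searched for after the sequences had been seen, and 1.03% of all 250-base windows held them. CCAAT was held by 32% and GAGGAA by 23.6% of all such windows. A match of letters is a description and says nothing of what binds there. RefSeq sequences were matched for 6 of the 7 genes, and those of STARD3, PGAP3, ERBB2 and MIEN1 held no TCTCGCGA.

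Library totals ranged from 14723152 to 29294865 estimated counts. The labels fitted the marker genes, since 10 of 10 luminal markers such as KRT8 were higher in the SKBR3 controls and 10 of 10 mesenchymal markers such as VIM were lower. Markers of leukocytes, endothelium and fibroblasts summed to 27.8 to 51.8 CPM (counts per 1000000 of the scaled library total) in the control libraries. The 7 genes together took 0.0441% ± 0.00103 of counts in the MDA-MB-231 controls (SD, n = 5) and 1.07% ± 0.0452 in the SKBR3 controls (SD, n = 3). After MitoQ the shares were 0.0490% ± 0.00121 and 1.08% ± 0.00524. These shares are of unscaled totals, unlike CPM. The scaling factors in MDA-MB-231 were 0.965 to 0.985 in controls and 1.014 to 1.051 after MitoQ, so part of the rise there is one of scale. These are bulk libraries, in which fewer cells of a kind and less RNA per cell cannot be told apart.

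All 7 genes were higher in SKBR3 than in MDA-MB-231, in controls and after MitoQ alike, and for each of them the lowest SKBR3 library lay above the highest MDA-MB-231 library. Of all genes, 39.4% lay apart in that direction between controls and 39.5% after MitoQ. Among all 16398 genes tested between the controls, 42.0% were higher in SKBR3 at an adjusted p under 0.05 in edgeR's quasi-likelihood test, so being higher is common between these lines. A log2 fold change above 3 was found for 6.02% of all genes and for each of the 7, with MED1 at the edge. Its 3.02 became 2.96 without a filter on low counts and 2.98 without SKBR3 control replicate 1. The median of the 7 was 4.15, beside -0.019 for all genes tested. The changes were far from equal, however, with log2 fold changes from 3.02 for MED1 to 8.22 for GRB7.

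ERBB2 itself, the receptor, stood at 55.9, 54.9, 58.7, 50.1 and 51.2 CPM in the MDA-MB-231 control libraries and at 4969, 5141 and 5871 CPM in the 3 SKBR3 controls. The groups lay far apart, and the highest SKBR3 control was replicate 3. The log2 fold change was 6.64 ± 0.064 (SE), a 99.5-fold difference, with an adjusted p of 9.25e-25. By mean CPM, not corrected for transcript length, ERBB2 ranked 8 among all genes of the table in the SKBR3 controls and 4443 in the MDA-MB-231 controls. ERBB2 made up 49.9% ± 2.17 of the counts of the 7 genes in SKBR3 controls (SD, n = 3) and 11.9% ± 0.668 in MDA-MB-231 controls (SD, n = 5).

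GRB7 encodes an adaptor protein that binds activated receptor tyrosine kinases, HER2 among them. Its 5 MDA-MB-231 controls lay at 1.31, 1.17, 1.10, 0.602 and 1.39 CPM, from 14 to 34 counts per library, and its SKBR3 controls at 312, 322 and 356 CPM. It was close to the bottom of the detectable range in 1 line and well expressed in the other. The log2 fold change of 8.22 ± 0.087, a 298-fold difference, was the largest of the 7 (adjusted p = 3.24e-23). That SE was derived from the test statistic and may be too small. In the MDA-MB-231 controls alone the SD was 27.6% of the mean. Only 0.817% of all genes tested had a larger one. Set against ERBB2, GRB7 gave 2.05 ± 0.565 counts per 100 ERBB2 counts in MDA-MB-231 controls (SD, n = 5) and 6.21 ± 0.122 in SKBR3 controls (SD, n = 3). GRB7 was the one neighbour with a higher ratio to ERBB2 in SKBR3, while the other 5 ratios were lower there.

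MIEN1, a small membrane-anchored protein described in cell migration, lay at 22.1, 18.9, 20.1, 19.4 and 19.3 CPM in MDA-MB-231 controls and at 291, 249 and 263 CPM in SKBR3 controls. Its log2 fold change was 3.76 ± 0.055, or 13.6-fold (adjusted p = 5.82e-23). Since 21.6% of its 31-base stretches are antisense to ERBB2, reads of ERBB2 may be among its counts in SKBR3, and their part in this value was not tested.

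STARD3 and PGAP3 act in membranes, STARD3 as a cholesterol-binding protein of late endosomes and PGAP3 as a Golgi enzyme that remodels the lipid of GPI anchors. STARD3 lay at 34.7, 35.3, 35.2, 32.2 and 33.1 CPM in MDA-MB-231 controls and at 356, 349 and 378 CPM in SKBR3 controls, a log2 fold change of 3.42 ± 0.043 (10.7-fold, adjusted p = 1.31e-24). PGAP3 lay at 4.47, 4.47, 3.96, 4.86 and 3.79 CPM and at 148, 148 and 158 CPM. Its log2 fold change of 5.15 ± 0.061, or 35.6-fold, came after those of GRB7 and ERBB2 (adjusted p = 6.49e-25). PGAP3 and STARD3 are neighbours, yet PGAP3 was among the lowest of the 7 in MDA-MB-231 and showed the wider gap between lines. Since 4.28% of the 31-base stretches of PGAP3 are antisense to ERBB2, reads of ERBB2 may be among its counts in SKBR3. Their part in this gap was not tested.

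MED1 and CDK12 work in transcription, MED1 as the Mediator subunit that contacts nuclear receptors and CDK12 as the cyclin K-dependent kinase of elongating RNA polymerase. MED1 lay at 178, 192, 186, 182 and 177 CPM in MDA-MB-231 controls and at 1532, 1422 and 1444 CPM in SKBR3 controls. CDK12 lay at 149, 164, 156, 160 and 153 CPM and at 2761, 2718 and 2771 CPM. These were the 2 most abundant of the 7 in MDA-MB-231, and they stayed below ERBB2 in SKBR3. The log2 fold changes were 3.02 ± 0.041 for MED1 (8.10-fold, adjusted p = 4.30e-24) and 4.15 ± 0.042 for CDK12 (17.8-fold, adjusted p = 5.58e-26).

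**Figure D1:**
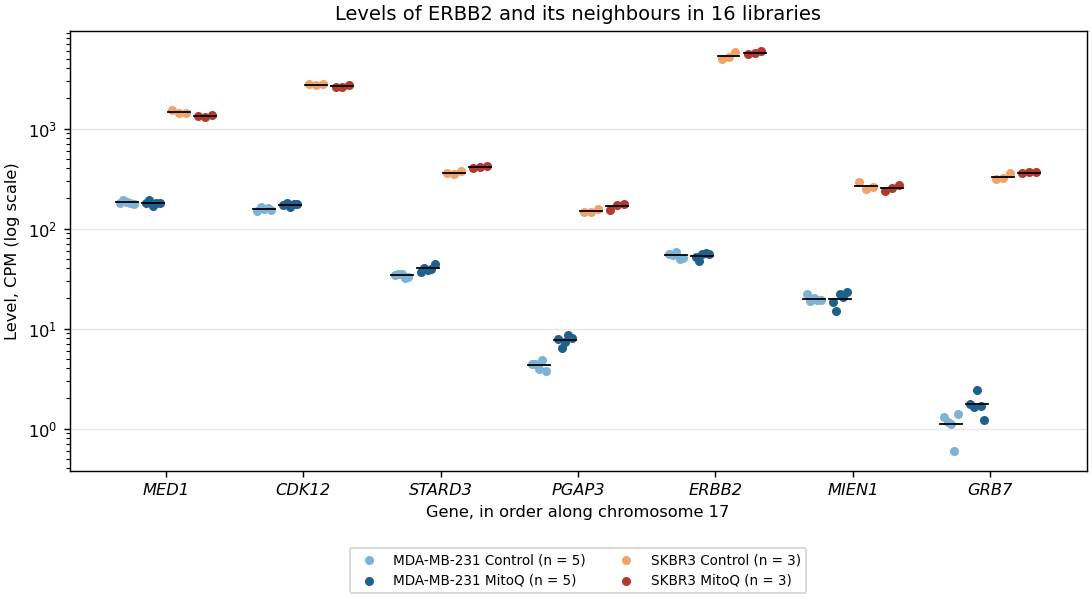
CPM (log axis) of the 7 genes in each of 16 libraries, with points for libraries and bars for group means. For every gene the 6 SKBR3 points lie above the 10 MDA-MB-231 points, with ERBB2 near 5327 CPM in SKBR3 controls and GRB7 near 1.11 CPM in MDA-MB-231 controls.

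Levels can be ordered between genes only per length of transcript. In the SKBR3 controls, in CPM per kb of annotated exons, ERBB2 stood highest at 516 ± 46.4, followed by CDK12 at 215 ± 2.21 and MED1 at 200 ± 7.90 (SD, n = 3). MIEN1 followed at 117 ± 9.42, GRB7 at 91.8 ± 6.39, STARD3 at 70.0 ± 2.95 and PGAP3 at 41.2 ± 1.59. In the MDA-MB-231 controls the order was MED1 at 25.0 ± 0.842, CDK12 at 12.2 ± 0.470, MIEN1 at 8.71 ± 0.565, STARD3 at 6.60 ± 0.266, ERBB2 at 5.25 ± 0.340, PGAP3 at 1.17 ± 0.118 and GRB7 at 0.309 ± 0.0853 (SD, n = 5). In neither line did the library values of genes next to each other in the order overlap. ERBB2 thus moved from place 5 to place 1. The order depends on the length used: per kb of the longest transcript, ERBB2 lay above MIEN1 (9.99) and STARD3 (9.88) in MDA-MB-231, and GRB7 at 147 came above MIEN1 at 134 in SKBR3. The first place of ERBB2 in SKBR3 and the lowest places of PGAP3 and GRB7 in MDA-MB-231 held with both lengths.

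The MitoQ libraries are other libraries of the same lines at the same passages, and they gave the same order of differences between the lines. All 7 genes were higher in SKBR3, against 41.9% of 16471 genes tested. The log2 fold changes were 7.72 ± 0.097 for GRB7, 6.75 ± 0.070 for ERBB2, 4.46 ± 0.079 for PGAP3 and 3.94 ± 0.053 for CDK12. For MIEN1 the value was 3.69 ± 0.103, for STARD3 3.38 ± 0.058 and for MED1 2.92 ± 0.053. MED1 was the one gene of the 7 below 3, a level passed by 6.05% of all genes tested.

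Many other genes around ERBB2 were higher in SKBR3 as well. Of the 22 other genes tested within 500 kb of ERBB2, 18 were higher in the SKBR3 controls and 2 were lower, a share of 81.8% higher with a median log2 fold change of 2.21. From 500 to 1000 kb away, 8 of 17 genes were higher and 6 lower with a median of -0.0064, and on the other chromosomes 42.1% of genes were higher. Toward the centromere RPL19, a ribosomal protein gene 483.2 kb away, was at 994 CPM in MDA-MB-231 controls and 9525 CPM in SKBR3 controls. Its log2 fold change was 3.28, uncertain because it has near-identical pseudogenes. FBXL20 and STAC2 differed by 4.65 and 5.45, but STAC2 was barely detected in MDA-MB-231 controls, at 0.194 ± 0.0536 CPM. Toward the telomere GSDMB differed by 6.37, ORMDL3 by 3.05, PSMD3 by 2.10, MED24 by 2.35 and MSL1 by 2.81, all higher in SKBR3.

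Genes that were not higher in SKBR3 lay between those that were. The nearest to ERBB2 toward the centromere was PNMT, the adrenaline-synthesising enzyme, which lies 17.4 kb away between STARD3 and PGAP3. PNMT was at 0.346 ± 0.173 CPM in MDA-MB-231 controls (SD, n = 5) and 0.503 ± 0.164 CPM in SKBR3 controls (SD, n = 3), barely detected in either line, with a log2 fold change of 0.48 ± 0.439 (adjusted p = 0.307). Toward the telomere it was IKZF3, a lymphoid transcription factor gene 27.3 kb away and the next beyond GRB7 to be tested, at 11.1 ± 0.854 CPM and 9.35 ± 0.744 CPM. Its log2 fold change of -0.23 ± 0.093 passed the test (adjusted p = 0.0294), but not in DESeq2 (adjusted p = 0.0724) or when any of 6 of the 8 control libraries was left out (adjusted p up to 0.127). Between the MitoQ libraries IKZF3 was also lower in SKBR3, at -0.46 (adjusted p = 7.23e-05). NEUROD2, 78.1 kb away between CDK12 and STARD3, gave -0.18 and did not pass the test (adjusted p = 0.619). Without SKBR3 control replicate 3 its value was 0.21. CSF3, 284.9 kb away, was at 1.61 ± 0.476 CPM in MDA-MB-231 controls and barely detected in SKBR3 controls, at 0.0847 ± 0.103 CPM. Its log2 fold change was -4.48 (adjusted p = 1.47e-07), and -5.76 between the MitoQ libraries (adjusted p = 2.27e-11). TOP2A, a topoisomerase gene 658.1 kb away, gave -0.029 (adjusted p = 0.489), with 1161 CPM in MDA-MB-231 controls and 1124 CPM in SKBR3 controls. Between the MitoQ libraries TOP2A was higher in SKBR3, at 1214 against 685 CPM (log2 fold change 0.84, adjusted p = 2.49e-10).

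**Figure D2:**
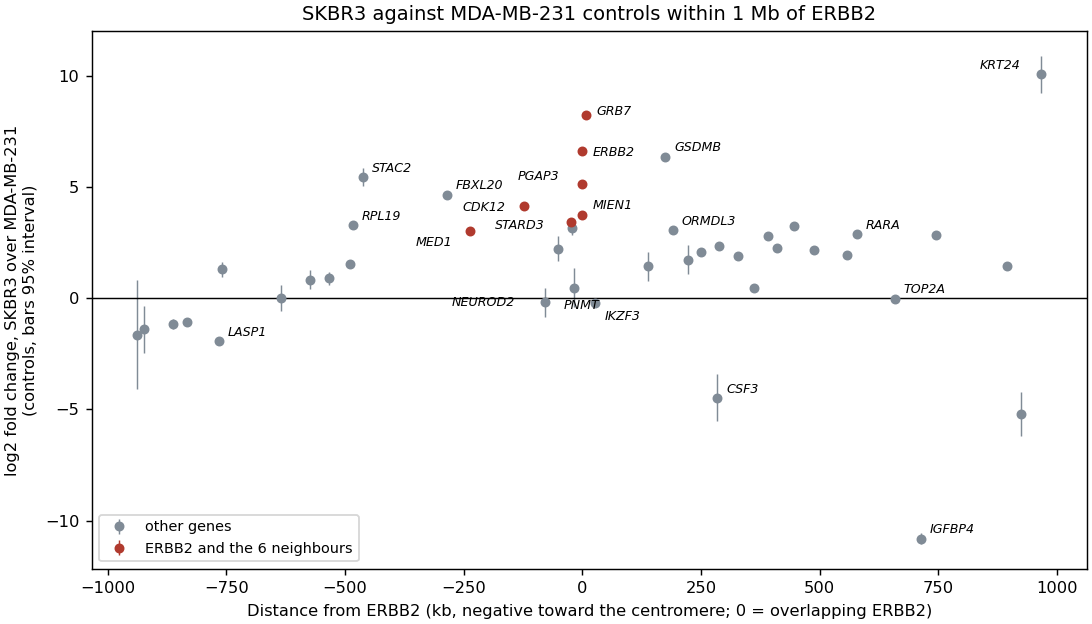
Log2 fold change of SKBR3 over MDA-MB-231 controls (n = 3 and 5) for tested genes within 1000 kb of ERBB2, against distance in kb. Bars are nominal 95% intervals, with the SE derived from the test statistic. They may be too narrow for genes barely detected in either line. IGFBP4 had an SE of 0.132, although its SKBR3 controls lay at 0.427 ± 0.208 CPM (SD, n = 3). The 7 genes (red) lie between 3.02 and 8.22, with PNMT, IKZF3 and NEUROD2 near 0 among them and IGFBP4 lowest at -10.80.

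With MitoQ, 4 of the 7 genes changed in MDA-MB-231 and 2 in SKBR3, and ERBB2 passed the test in neither line. In MDA-MB-231 PGAP3, GRB7, STARD3 and CDK12 were higher with MitoQ and none was lower, so 4 of 7 were higher beside 29.9% of all 15304 genes tested, and 0 of 7 lower beside 27.6%. The median log2 fold change of the 7 was 0.17, beside 0.012 for all genes. For 3 of the 7 the MitoQ libraries all lay above the controls, as for 21.2% of all genes. In SKBR3, STARD3 was higher and MED1 lower, 2 of 7 beside 28.0% of 15026 genes in either direction (13.8% higher, 14.1% lower). There 2 of the 7 lay wholly above and 2 wholly below the controls, beside 21.3% and 18.7% of all genes. STARD3 was the one gene of the 7 that passed the test in both lines.

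In the 5 MDA-MB-231 MitoQ libraries ERBB2 lay at 51.9, 47.7, 55.6, 56.5 and 56.2 CPM, within and around the range of the controls. The log2 fold change was 0.0050 ± 0.058 with a 95% interval from -0.11 to 0.12 (adjusted p = 0.951). In SKBR3 the MitoQ libraries lay at 5510, 5730 and 5931 CPM, above control replicates 1 and 2, while control replicate 3 lay among them. The log2 fold change was 0.082 ± 0.052 with an interval from -0.020 to 0.19 (adjusted p = 0.273). That 1 control decided the call: without it the value was 0.17 and passed the test (adjusted p = 0.00899). With each other SKBR3 library left out it ranged down to 0.036.

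PGAP3 showed the largest response of the 7. Its MDA-MB-231 MitoQ libraries lay at 7.92, 6.32, 7.35, 8.59 and 8.13 CPM, all above the 5 controls. It rose 1.81-fold (log2 fold change 0.85 ± 0.105, adjusted p = 1.23e-06), and 6.27% of all genes tested had a larger value. Its divergent partner ERBB2 did not pass the test in the same libraries. In SKBR3 PGAP3 lay at 154, 173 and 174 CPM with MitoQ, where the lowest overlapped with the highest control. That value of 0.12 ± 0.044 just missed the threshold (adjusted p = 0.0519). The alternatives in which it passed included plain library totals, no filter, limma voom, and leaving out SKBR3 control replicate 3 or MitoQ replicate 1.

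STARD3 rose in both lines. In MDA-MB-231 the MitoQ libraries lay at 36.7, 40.4, 38.9, 39.2 and 44.4 CPM, all above the controls, a 1.19-fold change (log2 fold change 0.25 ± 0.056, adjusted p = 9.12e-04). In SKBR3 they lay at 401, 411 and 424 CPM, again above every control, a 1.12-fold change (0.17 ± 0.037, adjusted p = 0.00359). STARD3 passed the threshold of 0.05 in each alternative analysis run of either line.

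GRB7 in MDA-MB-231 lay at 1.74, 1.65, 2.45, 1.70 and 1.21 CPM with MitoQ, and the lowest of these overlapped with the controls. The log2 fold change was 0.66 ± 0.224, or 1.58-fold (adjusted p = 0.0162), on 29 to 50 counts per MitoQ library. Without MDA-MB-231 MitoQ replicate 3, the highest library, the call was lost (adjusted p = 0.0594). In SKBR3 the MitoQ libraries lay at 358, 367 and 365 CPM, all above the controls by a narrow margin. The value of 0.12 ± 0.043 did not pass the test (adjusted p = 0.0550). The alternatives in which it passed included plain library totals, no filter, limma voom, and leaving out SKBR3 control replicate 3.

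CDK12 passed the test in MDA-MB-231 and MED1 in SKBR3. CDK12 with MitoQ lay at 171, 181, 166, 174 and 175 CPM in MDA-MB-231, above every control, and rose 1.13-fold (log2 fold change 0.17 ± 0.044, adjusted p = 0.00239). In SKBR3 it lay at 2620, 2589 and 2695 CPM, below every control, with a value of -0.083 ± 0.038 that did not pass the test (adjusted p = 0.116). In limma voom that value passed. MED1 lay at 178, 191, 169, 179 and 182 CPM with MitoQ in MDA-MB-231, across the range of the controls, with a value of -0.0059 (interval -0.094 to 0.082, adjusted p = 0.926). In SKBR3 MED1 lay at 1344, 1318 and 1370 CPM, below every control, and fell by 0.15 on the log2 scale (SE 0.041, adjusted p = 0.0144). The MED1 call was lost when 1 fit took in both lines (adjusted p = 0.0924) and without SKBR3 control replicate 1 (0.0697), control replicate 2 (0.0564) or MitoQ replicate 2 (0.157).

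MIEN1 with MitoQ lay at 18.4, 14.9, 22.3, 20.7 and 23.1 CPM in MDA-MB-231 and at 236, 256 and 271 CPM in SKBR3, overlapping with the controls in both. The values were 0.014 ± 0.092 (adjusted p = 0.913) and -0.096 ± 0.056 (adjusted p = 0.235). Its MDA-MB-231 interval, from -0.17 to 0.19, was wider than that of ERBB2.

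**Figure D3:**
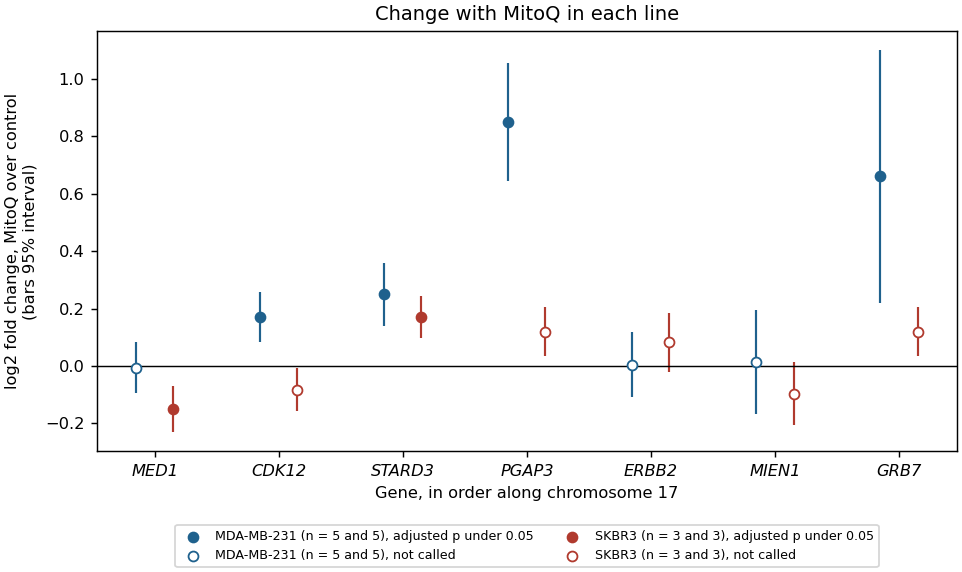
Log2 fold change of MitoQ over control for each gene in MDA-MB-231 (blue, n = 5 and 5) and SKBR3 (red, n = 3 and 3), bars 95% interval, filled points where the adjusted p is under 0.05. PGAP3 (0.85) and GRB7 (0.66) in MDA-MB-231 stand highest, and the ERBB2 intervals include 0 in both lines.

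The response to MitoQ differed between the lines for 2 of the 7 genes, CDK12 and PGAP3. The difference itself, SKBR3 minus MDA-MB-231, was tested as an interaction over all 16 libraries, in which 34.1% of 17094 genes passed. For PGAP3 it was -0.69 ± 0.112 (adjusted p = 3.47e-05), and for CDK12 -0.21 ± 0.062 (adjusted p = 0.00963). For both, the MitoQ value was the lower one in SKBR3, a direction found for 14.9% of all genes. Reads of ERBB2 may be among the PGAP3 counts in SKBR3, and their part in the PGAP3 difference was not tested. Of all calls 56.1% were higher in SKBR3, and 41.6% with plain library totals. GRB7 gave -0.49 ± 0.196 and just missed the threshold (adjusted p = 0.0555). It passed in DESeq2, with DESeq2 size factors, with plain library totals, and with the 7 and mitochondrial genes left out of the scaling. It also passed without MDA-MB-231 control replicate 1, control replicate 5 or MitoQ replicate 5 and without SKBR3 control replicate 1. With 1 library left out its value ranged from -0.59 to -0.34, with adjusted p from 0.0146 to 0.152. For ERBB2 the difference was 0.12 ± 0.091 with an interval from -0.058 to 0.30 (adjusted p = 0.344). For MED1 it was -0.097 (adjusted p = 0.267, but 0.0185 with plain library totals), for MIEN1 -0.066 (0.769) and for STARD3 -0.038 (0.758).

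**Figure D4:**
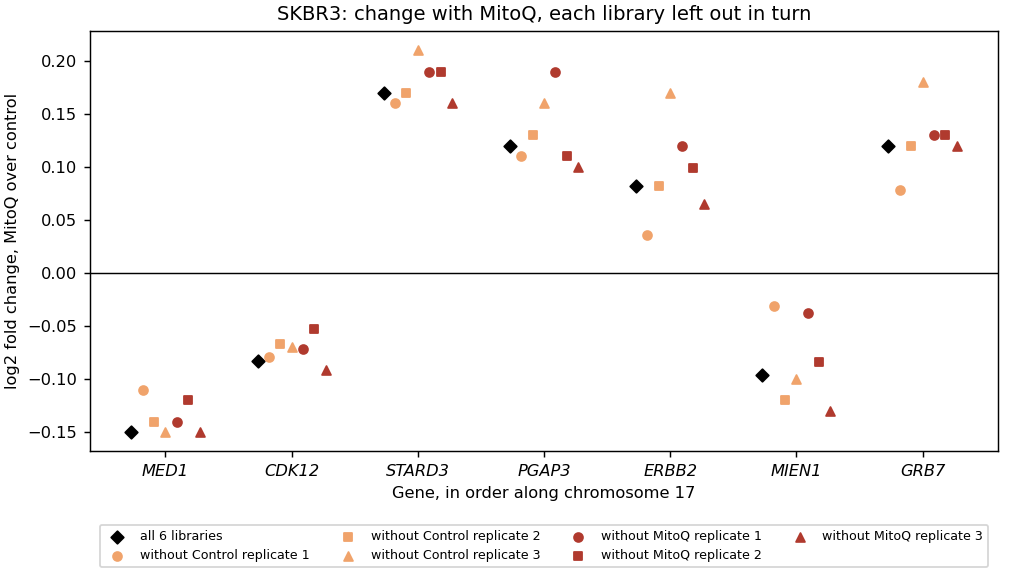
SKBR3 log2 fold change of MitoQ over control for each gene with all 6 libraries (black) and with each library left out in turn. ERBB2 moves between 0.036 and 0.17 and STARD3 between 0.16 and 0.21, and for none of the 7 does the value cross 0.

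By the root mean square difference of centred log2 CPM, the genes whose profiles were most like that of ERBB2 were not its neighbours. Over all 16 libraries and among 11550 genes they were GALNT17 at 0.196, NECTIN4 at 0.214, CRIP2 at 0.254, and MYO7A and QPRT, both at 0.274. None of these is on chromosome 17. All had a Pearson r of at least 0.997 with ERBB2, over libraries that fall into 2 lines. Their levels in MDA-MB-231 controls were low, from 0.439 CPM for NECTIN4 to 2.24 CPM for QPRT, so the prior count added before taking logs shapes these profiles. Of the 6 neighbours, CDK12 (0.999), MED1, STARD3 (both 0.998) and MIEN1 (0.997) had r just as high. These stood apart from the genes above in the root mean square difference and not in r. For GRB7 (0.995) and PGAP3 (0.989) r was slightly lower. Ranked by r, the closest genes were instead CTAG2, PRR15, HIST1H3F, HIST1H4F and CDKN2A, none of which was among those named by root mean square difference. By root mean square difference GRB7 was the closest of the 6 neighbours, in place 111 with 0.703, and MED1 the farthest, in place 442 with 1.809. Within the 6 SKBR3 libraries, where the line is not a factor, the closest were ITGB5, AP3D1, P2RY6, SH2D3A and SEMA4B, at 0.018 to 0.021. Only P2RY6 of these was also among the closest by r. There GRB7 was again the closest neighbour, in place 65 with r = 0.937, then PGAP3 with r = 0.827 and STARD3 with r = 0.813. CDK12 (r = -0.290), MIEN1 (r = -0.214) and MED1 (r = -0.620) did not follow ERBB2. These r values describe 6 libraries that share treatment groups and scaling.

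Genes that act with the 7 were counted from lists of pathway members. Among all genes tested, 29.9% were higher and 27.6% lower with MitoQ in MDA-MB-231, and 13.8% were higher and 14.1% lower in SKBR3, and each list is read beside these shares. Of 19 receptor partners and signalling adaptors of HER2 tested, 7 were higher (36.8%) and 8 lower (42.1%) with MitoQ in MDA-MB-231, with a median of -0.053. In SKBR3 6 were higher (31.6%) and 1 lower (5.26%), with a median of 0.042. EGFR, the closest relative of HER2, rose from 436 ± 20.9 to 701 ± 38.1 CPM in MDA-MB-231 (log2 fold change 0.71, adjusted p = 5.63e-10), beside 54.2 and 53.6 CPM for ERBB2. Of the 10 chaperones and turnover factors of HER2, 3 were higher and 6 lower in MDA-MB-231 (median -0.24), the former close to the 29.9% and the latter above the 27.6% of all genes. In SKBR3 1 was higher and 5 lower (median -0.11), beside 13.8% and 14.1%. HSP90B1, the HSP90 of the endoplasmic reticulum, fell in both lines, by 0.46 on the log2 scale in MDA-MB-231 and by 0.31 in SKBR3 (adjusted p = 1.69e-08 and 4.84e-05). Of the transcription factors described at the ERBB2 promoter, 3 of 13 were higher and 5 lower in MDA-MB-231, and 1 of 14 was higher and 4 lower in SKBR3, so 38.5% and 28.6% were lower. Among them TFAP2C rose by 0.51 in MDA-MB-231 (adjusted p = 1.09e-07), and MYB fell in both lines, by 0.83 and by 0.50 (adjusted p = 8.43e-05 and 2.66e-04).

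GRB10, a relative of GRB7, rose by 0.69 in MDA-MB-231 (adjusted p = 2.90e-10), from 75.1 ± 1.71 to 119 ± 6.90 CPM. Between the lines it lay opposite to GRB7, with 5.65 ± 0.670 CPM in SKBR3 controls. Of 15 genes of GPI anchor transfer and remodelling, the pathway of PGAP3, 6 were higher (40.0%) and 1 lower (6.67%) in MDA-MB-231, with a median of 0.16, beside 29.9% and 27.6% of all genes. In SKBR3 1 was higher and 2 lower (6.67% and 13.3%), with a median of -0.081, beside 13.8% and 14.1%. MPPE1, another enzyme that trims the GPI anchor, rose by 0.82 in MDA-MB-231 beside PGAP3 (adjusted p = 1.27e-08). Its MitoQ effect was also lower in SKBR3 than in MDA-MB-231, by an interaction of -0.76 (adjusted p = 1.10e-05). Of 11 genes of late endosomal cholesterol and contact sites, which surround STARD3, 3 were higher and 4 lower in MDA-MB-231 (27.3% and 36.4%) and 3 were lower in SKBR3 (27.3%). LIPA, the lysosomal lipase, fell in both lines, by 0.39 in MDA-MB-231 and by 0.36 in SKBR3 (adjusted p = 7.50e-04 and 6.14e-04). ABCA1, the exporter of cholesterol from cells, rose in MDA-MB-231 from 25.5 ± 1.39 to 70.8 ± 15.8 CPM (2.82-fold, adjusted p = 1.39e-05). In SKBR3 it fell from 4.66 ± 0.635 to 3.22 ± 0.348 CPM (-0.56, adjusted p = 0.0148), a call that was lost in a single fit over both lines and without SKBR3 control replicate 2, control replicate 3 or MitoQ replicate 2. The difference between the lines for ABCA1 was -2.03 (adjusted p = 2.06e-04).

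Of 28 other Mediator genes tested, 7 were higher (25.0%) and 11 lower (39.3%) in MDA-MB-231, beside 29.9% and 27.6% of all genes. In SKBR3 3 were higher (10.7%) and 5 lower (17.9%), near the 13.8% and 14.1% of all genes, and the medians in the lines were -0.090 and -0.063. MED24, a Mediator subunit gene that also lies near ERBB2, was 2.35 higher on the log2 scale in the SKBR3 controls. MED8 fell by 0.36 in SKBR3, where MED1 fell (adjusted p = 8.90e-04). Of the 8 elongation kinases and cyclins, 3 were higher and 3 lower in MDA-MB-231, and 2 were lower in SKBR3. CCNK, the cyclin of CDK12, fell by 0.28 in MDA-MB-231 (adjusted p = 1.16e-04), in the libraries where CDK12 rose. It also fell in SKBR3, by 0.20 (adjusted p = 0.0443), where CDK12 lay below every control but did not pass the test. Between the controls CCNK had a log2 fold change of -1.82, with 36.8 ± 3.27 CPM in SKBR3 and 131 ± 7.71 CPM in MDA-MB-231, opposite in sign to CDK12. Of 8 long DNA repair genes described as dependent on CDK12, 4 were higher and 1 lower in MDA-MB-231, and 2 were higher and 1 lower in SKBR3. BRCA1 rose in both lines, by 0.52 in MDA-MB-231 and by 0.33 in SKBR3 (adjusted p = 2.61e-07 and 0.00341). FANCI rose by 0.25 in MDA-MB-231 (adjusted p = 1.26e-04).

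Other genes of the 17q12-q21 stretch moved with MitoQ in both directions. Of 33 tested in MDA-MB-231, 9 were higher (27.3%) and 6 lower (18.2%), with a median of 0.050, and the share higher was near the 29.9% of all genes. Of 31 tested in SKBR3, 7 were higher (22.6%) and 2 lower (6.45%), with a median of 0.059, beside 13.8% and 14.1%. TOP2A fell by 0.74 in MDA-MB-231 (adjusted p = 4.41e-11) and gave 0.090 in SKBR3 (adjusted p = 0.0978, but 0.0477 with plain library totals). CSF3 rose by 2.10 in MDA-MB-231 (adjusted p = 1.98e-09), from 1.61 ± 0.476 to 6.85 ± 0.861 CPM, and was too low to be tested in SKBR3. TNS4, a focal adhesion gene, rose 1.82-fold in SKBR3 (log2 fold change 0.86, adjusted p = 2.15e-07), and STAC2 fell by 0.97 there (adjusted p = 1.52e-04). Both exceed any MitoQ change of the 7 genes in SKBR3, where the 7 lay between -0.15 and 0.17.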

How the data were processed

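RNA sequencing of 16 libraries gave estimated counts per gene, deposited by the authors as whole numbers. Per the submitters' processing notes Salmon, edgeR and the build GRCh38 were used, and the sources used here do not state versions, annotation release, rounding or strand setting. Whole numbers may be rounded, and reads of overlapping genes may be shared between them. Of 35106 genes, 35003 matched GENCODE release 29 by identifier.

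Groups were line and treatment, from the labels. The test was the two-sided quasi-likelihood test of edgeR 4.0.16 under R 4.3.3, with robust spread, on genes passing filterByExpr after TMM scaling, with Benjamini-Hochberg adjustment over all genes tested and a threshold of 0.05. Each line was tested alone, the lines were compared within controls and within MitoQ libraries, and the interaction used all 16. The lines' contrasts and the treatment contrasts share libraries. CPM uses TMM over all 16 libraries. Intervals are 1.96 SE, with the SE derived from the test statistic. Between the lines they may be too narrow for genes barely detected in either line. The limit for a count of 0 was 3 counts per library.

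The 7 genes, given by name and position with no measured value in the rule, and all lists were chosen with earlier results of these data known. Named are the 7 genes, up to 3 genes per list with the smallest p among those that passed, genes within 500 kb of ERBB2, the nearest tested gene on each side not higher in SKBR3, and the 5 genes most like ERBB2 with a mean of at least 5 CPM (prior count 2). The genes with the highest Pearson r with ERBB2 over all libraries are named as well. TOP2A between the lines, and which of the named genes serve as examples, was chosen after values were seen. Alternatives were DESeq2 1.42.0, its size factors, plain totals, no filter, limma 3.58.1 voom with quality weights, a single fit, a threshold of 0.01, scaling without the 7 and mitochondrial genes, a replicate block, and each library left out. Tests were tested on simulated data.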

Additional observations from a re-analysis of the deposited data

Results flagged for a closer look

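For CDK12 and PGAP3 the effect of MitoQ differed between the lines by the test of the difference itself, the interaction term over all 16 libraries in edgeR's quasi-likelihood test. The difference, SKBR3 minus MDA-MB-231, was -0.21 on the log2 scale for CDK12 (adjusted p = 0.00963) and -0.69 for PGAP3 (adjusted p = 3.47e-05). CDK12 rose in the MDA-MB-231 libraries and lay lower with MitoQ in all 3 SKBR3 libraries, where the change did not pass the test. PGAP3 was higher with MitoQ in 5 of 5 MDA-MB-231 libraries. Its SKBR3 counts may hold reads of ERBB2 from the shared exon bases, whose part was not tested. Over the alternatives the adjusted p ranged from 1.16e-04 to 0.0350 for CDK12 and from 1.16e-08 to 1.61e-04 for PGAP3. The same test was passed by ABCA1, at -2.03 (adjusted p = 2.06e-04), and MPPE1, at -0.76 (adjusted p = 1.10e-05), and both calls held in all alternatives run. The search for single libraries that stand apart used the groups of 5 libraries only. It covered the values of the 7 genes, their summed share of counts and the library totals, and of 18 such sets 0 held one. Groups of 3 were too small for it, so no SKBR3 library was searched. Over all genes, pairs with MDA-MB-231 MitoQ replicate 2 had a chi-square per degree of freedom of 16.4 to 21.7. The other pairs of that group gave 3.31 to 11.8. Without that replicate 9169 genes were called in MDA-MB-231, in place of 8805.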

How the results depend on the processing

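Of 644 alternative values of the 7 genes in 5 comparisons, 592 kept direction and side of the threshold, 7 were no longer called, 22 were newly called and 23 changed sign. The differences between lines were called for all 7 genes in every alternative run. Genes called with MitoQ in SKBR3 numbered 4202, but 2788 in a single fit, 2436 at a threshold of 0.01 and 2565 to 4547 with 1 library left out. Of the 7 genes 2 were called there, but 4 with plain totals, 4 without a filter, 5 in limma voom, 1 in a single fit, 1 at 0.01 and 1 to 5 with 1 library left out. For the interaction 2 were called, but 4 with plain totals (MED1 and GRB7 in addition) and 2 to 3 with 1 library left out. Replicate numbers did not pair the libraries (correlations of same-numbered libraries from -0.098 to 0.067), and with a replicate block 4 of the 7 were called in SKBR3, PGAP3 and GRB7 in addition to STARD3 and MED1. The sign changes were of values near 0 that were not called. In MDA-MB-231 ERBB2 gave -0.0060 with DESeq2 size factors and in DESeq2, -0.0083 without a filter, -0.016 in a single fit, -0.0011 without the 7 and mitochondrial genes in the scaling, and -0.026 to 0.051 with 1 library left out. MED1 there gave 0.055 with plain totals and -0.021 to 0.016 with 1 library left out, and MIEN1 gave -0.0079 in a single fit and -0.043 to 0.11. The interaction ranged from -0.068 to 0.012 for STARD3 and from -0.14 to 0.0024 for MIEN1 with 1 library left out, without SKBR3 control replicate 3 being 0.0077 for STARD3. NEUROD2 between controls ranged from -0.43 to 0.21, the latter without SKBR3 control replicate 3, and TOP2A from -0.043 to 0.015, the latter without MDA-MB-231 control replicate 3. The cause of these shifts was not tested. Depth limits GRB7 in MDA-MB-231, at 14 to 34 counts per control, and PNMT in both lines.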
